A study of Mus musculus with 6 samples.

Results

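The tumour necrosis factor (TNF) superfamily is described here across a single chromatin state map of mouse hematopoietic stem cells (HSCs). Its members were taken by symbol from the GRCm38.p6 (mm10) gene table of RefSeq: protein-coding genes named Tnfsf or Tnfrsf with a number, plus Tnf, Lta, Ltb, Fas, Fasl, Ltbr, Cd40, Cd40lg, Cd27 and Cd70. This gave 41 genes of the 21779 protein-coding genes in the map, 17 of them ligands and 24 receptors. They lay on 14 chromosomes, with 9 on chromosome 4 and 8 on chromosome 17. Counting genes within 100 kb of each other as 1 locus gave 28 loci, and 22 of the 41 members shared a locus with another member, so neighbouring members are not independent.

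The series profiled the histone variant H3.3 by ChIP-seq in HSCs from the bone marrow of adult C57BL/6 mice. It had 6 libraries: 2 H3.3 ChIP libraries and 1 input from HIRA KO cells, and 2 H3.3 ChIP libraries and 1 input from WT cells. Hira, which encodes a chaperone that places H3.3 into chromatin outside DNA replication, was deleted conditionally in the hematopoietic system. Mice of all groups were injected with poly(I:C), which induces interferon, in 2 doses (20 ug each), and the cells were sorted on day 7 counted from the first, per the labels' protocols. Neither the driver of the deletion nor the number of mice per library is given in the sources used here. The values analysed were 1 map that assigns each 200 bp bin to 1 of 18 states, tied to the WT group by its file name only. It has no replicates, no read depth and no knockout column, so no difference between HIRA KO and WT cells was analysed, and no test was made. Every count below is a description of that single map, and the main ones are given beside the share over all protein-coding genes.

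TNF superfamily ligands are mostly trimeric proteins anchored in the cell membrane, and they bind and cluster receptors on the surface of neighbouring cells. Receptors with an intracellular death domain can recruit caspases and trigger apoptosis, while the others mainly bind TRAF adaptors and switch on NF-kappaB. In blood these genes govern lymphocyte activation and survival, and TNF and Fas signalling act on stem and progenitor cells during inflammation.

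The states carry numbers and no names. States 3 to 6 covered 1.13% of all bases, yet 50.4% of protein-coding genes had their transcription start there. States 9 to 11 covered 13.5% of bases, states 7 or 8 covered 5.58%, and states 17 or 18 covered 70.1%. A start position was given for 31 of the 41 members. For the other 10 (Tnfsf4, Tnfsf9, Tnfsf12, Cd70, Cd40lg, Cd40, Tnfrsf10b, Tnfrsf11b, Tnfrsf22 and Tnfrsf26) both ends of the gene record were read, and either end sufficed to place a gene in a state; other genes without a start were treated alike. Of the HSC marker genes used to check the label, Kit, Slamf1, Procr, Gata2, Mecom, Hlf, Meis1 and Fgd5 had a start in states 3 to 6, and Ly6a had both ends in state 17. Of 20 markers of T, B, myeloid, erythroid, endothelial and stromal cells, 0 had a start there.

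Starts of the family lay in states 3 to 6 at a share near that of all genes, and in states 1, 2 or 16 at a higher one, as did those of chemokine genes. Of the 41 members, 23 (56.1%, 95% Wilson interval 41.0 to 70.1) had a start in states 3 to 6, against 50.4% of all protein-coding genes. The interval covers counting error only and includes the share of all genes. The count was 8 of 17 ligands (47.1%, interval 26.2 to 69.0) and 15 of 24 receptors (62.5%, interval 42.7 to 78.8), so the intervals of ligands and receptors overlapped. It was 22 of 41 with either end of the record in place of the start, against 47.6% of all genes. Any bin within 1 kb gave 24 of 41, against 52.9% of all genes. States 9 to 11 held the start of 6 members (14.6%), against 20.8% of all genes. States 17 or 18 held 8 (19.5%), against 33.5% of all genes. States 1, 2 or 16 also held 8 (19.5%), against 4.61% of all genes, and the Wilson interval of that share ran from 10.2 to 34.0%. That class also held the start of 12 of 58 chemokine genes and receptors (20.7%) and of 10 of 83 interleukin genes and receptors (12.0%). States 7 or 8 held 4 (9.76%), against 5.42% of all genes. A member with several starts, or read at both ends, can count in more than 1 class. With either end of the record in place of the start, the count in states 17 or 18 was 20, against 57.8% of all genes. Among the 31 members with a given start, 17 lay in states 3 to 6 (51.6% of all genes with one) and 4 in states 9 to 11 (18.9% of all). A further 4 lay in states 17 or 18 (27.5% of all), 6 in states 1, 2 or 16 (3.57% of all) and 1 in states 7 or 8 (1.18% of all).

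**Figure D1:**
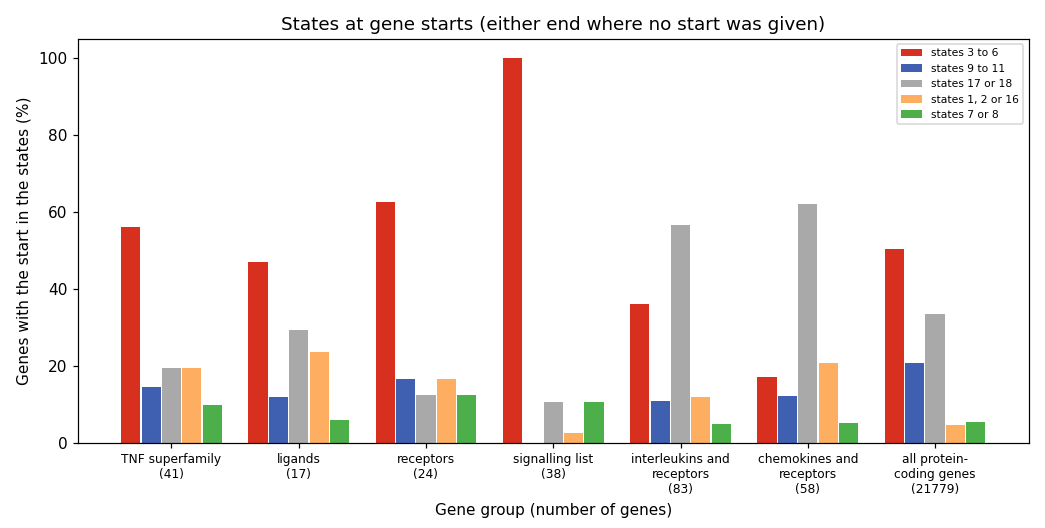
Share of genes (%) whose start lay in each class of states, for the 41 TNF superfamily genes, their ligands and receptors, the signalling list, like gene groups and all protein-coding genes; the number of genes is under each name. The superfamily stood at 56.1% in states 3 to 6, against 50.4% of all genes, and the signalling list at 100%.

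The ligands at the Tnf locus held 3 different states within 11.1 kb. Ltb, Tnf and Lta lie together in the major histocompatibility region of chromosome 17 (35194507 to 35205578) and encode lymphotoxin beta, TNF and lymphotoxin alpha. Ltb started in state 3, inside an unbroken run of states 3 to 6 of 3.4 kb. Tnf started in state 5, in a run of 1.2 kb. Lta, next to Tnf on the same strand, began instead in a state 17 segment of 3 kb, with the nearest bin of states 3 to 6 at 2.95 kb. The regions of all 3 genes overlap. Their promoters, from 250 bases before the start to 50 after it, are printed to set these 3 states beside the letters under them. They come from RefSeq (GRCm38.p6) and run 5′ to 3′ along the gene, with CG dinucleotides in capitals.
Ltb, chr17:35194257-35194556, + strand: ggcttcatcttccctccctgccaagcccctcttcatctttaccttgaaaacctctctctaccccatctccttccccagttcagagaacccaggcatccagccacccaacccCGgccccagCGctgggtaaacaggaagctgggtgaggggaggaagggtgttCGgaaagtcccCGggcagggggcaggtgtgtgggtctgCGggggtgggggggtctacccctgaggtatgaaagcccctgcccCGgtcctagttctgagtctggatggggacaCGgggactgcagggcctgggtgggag
Tnf, chr17:35201958-35202257, - strand: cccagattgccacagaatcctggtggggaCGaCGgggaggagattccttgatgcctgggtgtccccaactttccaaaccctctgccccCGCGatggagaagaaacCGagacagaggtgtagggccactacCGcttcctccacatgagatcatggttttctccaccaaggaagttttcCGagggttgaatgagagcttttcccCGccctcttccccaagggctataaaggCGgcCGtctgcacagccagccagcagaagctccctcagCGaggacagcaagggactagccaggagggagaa
Lta, chr17:35205302-35205601, - strand: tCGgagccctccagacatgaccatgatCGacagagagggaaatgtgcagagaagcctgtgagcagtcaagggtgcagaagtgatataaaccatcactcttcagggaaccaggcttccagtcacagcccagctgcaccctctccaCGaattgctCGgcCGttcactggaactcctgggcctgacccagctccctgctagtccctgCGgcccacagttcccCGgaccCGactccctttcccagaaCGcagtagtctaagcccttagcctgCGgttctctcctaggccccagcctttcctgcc
These windows held 7 CG in Ltb, 11 in Tnf and 10 in Lta, so Lta in state 17 was no poorer in CG than Ltb in state 3. TATAAA stood 29 bases before the start of Tnf and 167 before that of Lta. The Ltb window held a match to the NF-kappaB motif in a loose form, on the other strand, 87 bases before the start. That form was found in 4.98% of all promoters on either strand. These matches are descriptions of letters and show no binding.

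The other ligands with a start in states 3 to 6 were Tnfsf10, Tnfsf11, Tnfsf13 and Tnfsf14, and, read at both ends, Tnfsf9 and Tnfsf12. Tnfsf10, which encodes the death ligand TRAIL and is an interferon-induced gene, started in state 5 (chromosome 3, 27317077 to 27339665), and states 7 or 8 covered 47.4% of its body. Tnfsf11, the RANK ligand that drives osteoclast formation, and Tnfsf14, a ligand of Ltbr and Tnfrsf14, both started in state 6. Tnfsf13 (APRIL, a plasma cell survival factor) started in a state 5 segment of 2.2 kb. Its neighbour Tnfsf12 (TWEAK) had ends in states 16 and 4, and a further record, Tnfsfm13, overlaps the regions of both. Tnfsf9, a co-stimulatory ligand for T cells, had ends in states 4 and 17.

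Ligands outside states 3 to 6 fell into 2 sets. Cd70, the ligand of Cd27, had ends in states 11 and 9, within a block of states 9 to 11 flanked by state 18. Tnfsf13b (BAFF, a B cell survival factor) had both of its starts in 1 state 11 segment of 5.2 kb. The other 7, Lta among them, lay in neither class. Fasl, the ligand of Fas used by cytotoxic lymphocytes, started in a state 17 segment of 13.6 kb. Its region held a cluster of state 1 bins, the nearest 4.71 kb from its start. Tnfsf15, an activator of T cells known from gut inflammation, started in a state 18 segment of 25.8 kb, and Cd40lg, the T cell ligand of Cd40, had both ends in 1 state 18 segment of 23 kb. Tnfsf18 (GITR ligand) and Tnfsf8 (CD30 ligand), which act on T cells, each started in state 16, in segments of 1 and 4.8 kb. Tnfsf8 was the member farthest from states 3 to 6, at 301 kb, followed by Tnfsf15 at 185 kb. Tnfsf4, which co-stimulates T cells, had ends in states 1 and 8, and a state 5 segment lay 0.963 kb from its left end.

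**Figure D2:**
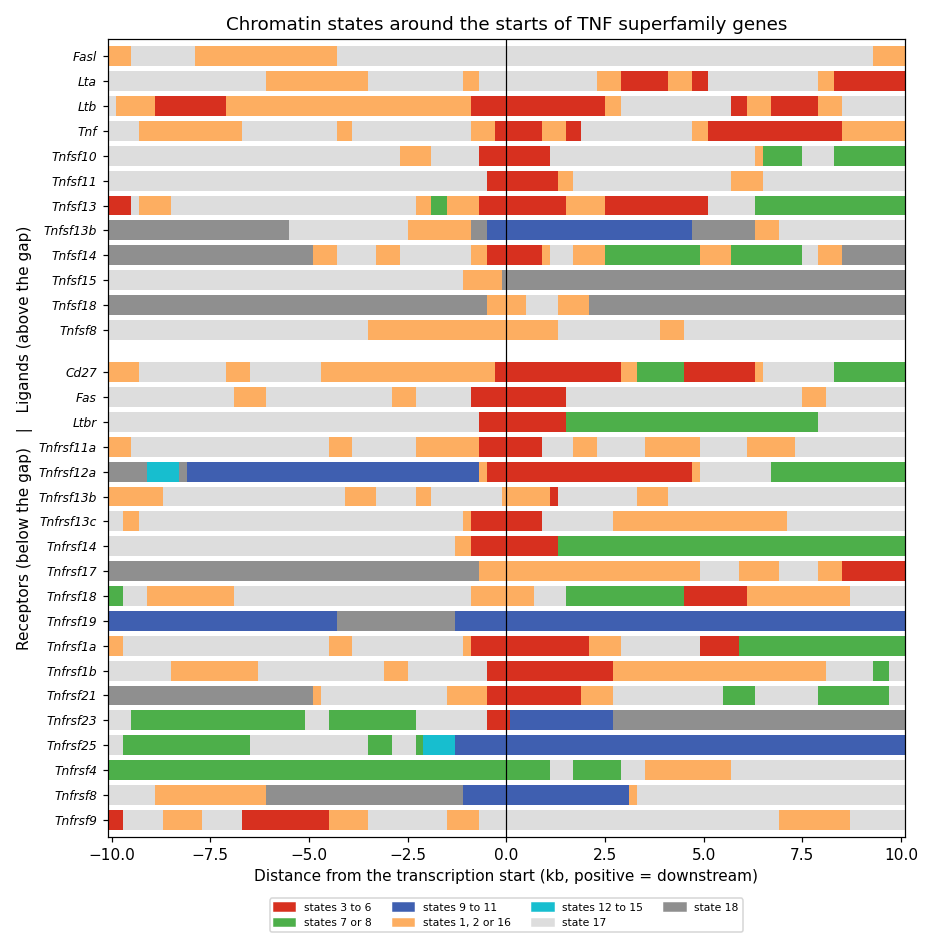
States along 10 kb on each side of the start (kb, downstream to the right) for the 31 members with a given start, ligands above the gap and receptors below; of several starts the most upstream is shown. The start line crosses states 3 to 6 in 17 members; 9 hold no such bin in the window: Fasl, Tnfsf13b, Tnfsf15, Tnfsf18, Tnfsf8, Tnfrsf19, Tnfrsf25, Tnfrsf4 and Tnfrsf8.

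Among death domain receptors 4 of 5 had a start in states 3 to 6 (Wilson interval 37.6 to 96.4%, which includes the 50.4% of all genes). Tnfrsf1a, the main TNF receptor on most cells, started in state 5 (chromosome 6, 125349723 to 125362483) in a run of 3 kb, and states 7 or 8 covered 53.8% of its body. Fas started in state 4, in a run of 2.4 kb made of states 4 and 6 only, while state 17 covered 86.4% of its region. Tnfrsf21 (DR6, studied in neurons and T helper cells) started in state 3, and Tnfrsf10b, the mouse TRAIL death receptor, had ends in states 4 and 17. Tnfrsf25, a receptor of activated T cells whose ligand is Tnfsf15, had both of its starts in 1 state 9 segment of 1.2 kb, and 62.9% of its region lay in states 9 to 11. That region also overlaps Espn and Plekhg5.

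Of the 6 receptors outside the death domain, decoy or secreted, B cell and T cell groups, 5 counted in states 3 to 6. The interval was 43.6 to 97.0%, with all genes at 50.4%, and Tnfrsf26 counted by an end of its record. Tnfrsf1b, the second TNF receptor, started in state 6 in a run of 3.2 kb, with states 1, 2 or 16 over 33.2% of its region. Tnfrsf12a, the TWEAK receptor, started in state 3 in the longest such run of the family, 5.2 kb, against a median of 2.4 kb over the 10974 genes with a run. Its region also overlaps 5 other genes, and states 9 to 11 covered 33.3% of it. Ltbr, the lymphotoxin beta receptor of stromal and myeloid cells, started in state 4, with states 7 or 8 over 78.9% of its body. Tnfrsf11a (RANK, required for osteoclasts) started in state 6 in a run of 1.6 kb, but state 18 covered 64.5% of its 89 kb region. Tnfrsf26 had ends in states 8 and 3. Tnfrsf19, known in mouse for its expression in skin and nervous tissue, was the exception, with starts in states 9 and 10.

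The decoy or secreted receptors counted in states 3 to 6 in 3 of 3 cases, 2 of them read at both ends (interval 43.9 to 100%, with all genes at 50.4%). Tnfrsf22 and Tnfrsf23, which bind TRAIL in mouse without signalling death, lie in a tandem cluster with Tnfrsf26 on chromosome 7. Tnfrsf22 had ends in states 8 and 4. Tnfrsf23 started in a state 5 run of 0.6 kb, the shortest of the family, between state 17 upstream and states 9 and 11 downstream. How reads shared by the related copies of this cluster were placed is not given in the sources used here, so their states are uncertain. Tnfrsf11b, the soluble RANK ligand trap osteoprotegerin, had ends in states 18 and 5.

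Among receptors of mature lymphocytes, 1 of 4 in the B cell group (interval 4.56 to 69.9%) and 2 of 6 in the T cell co-stimulation group (interval 9.68 to 70.0%) had a start in states 3 to 6. Both intervals include the 50.4% of all genes and overlap those of the other receptor groups. Cd27, carried by lymphocytes and by early blood progenitors, started in state 5 (chromosome 6, 125232620 to 125237136) in a run of 3.2 kb made of states 3 and 5 only. A state 1 bin lay 0.374 kb from that start. Tnfrsf14, a receptor of Tnfsf14 found widely on blood cells, started in state 3, and states 7 or 8 covered 80.8% of its body. Tnfrsf8 (CD30), of activated lymphocytes, started in a state 11 segment of 3.6 kb. Tnfrsf4 (OX40), Tnfrsf9 and Tnfrsf18 (GITR) are carried mainly by activated or regulatory T cells. The starts of Tnfrsf9 lay in states 17 and 16, that of Tnfrsf18 in state 16 and that of Tnfrsf4 in state 8. The state 8 segment at Tnfrsf4 spanned 3.4 kb, in a region that the neighbouring gene Sdf4 overlaps.

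In the B cell group Tnfrsf13c, the BAFF receptor, started in state 4 in a run of 1.8 kb. Tnfrsf13b (TACI) started in a state 2 segment of 1.2 kb and Tnfrsf17 (BCMA, of plasma cells) in a state 1 segment of 0.6 kb. Cd40, the receptor through which T cells help B cells, had ends in states 9 and 11 (chromosome 2, 165055614 to 165071654). States 9 to 11 covered 85.1% of the Cd40 region, the highest share in the family. Over 50% of the region lay in these states for 2 members, Cd40 and Tnfrsf25, against 7.24% of all genes.

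Ligands and their receptors showed every combination of a start inside and outside states 3 to 6. Of 23 known ligand and receptor pairs set side by side, both partners started in states 3 to 6 in 9, the receptor alone in 4, the ligand alone in 3 and neither in 7. Both did so in the pairs of Tnf with Tnfrsf1a and Tnfrsf1b, Ltb and Tnfsf14 with Ltbr, Tnfsf14 with Tnfrsf14, Tnfsf10 with Tnfrsf10b, Tnfsf11 with Tnfrsf11a and Tnfrsf11b, and Tnfsf12 with Tnfrsf12a. The receptor alone did so for Fas with Fasl, Cd27 with Cd70, Ltbr with Lta and Tnfrsf13c with Tnfsf13b. The ligand alone did so for Tnfsf9 with Tnfrsf9 and for Tnfsf13 with Tnfrsf13b and Tnfrsf17. The 7 with neither were Cd40lg with Cd40, Tnfsf4, Tnfsf8, Tnfsf15 and Tnfsf18 with their receptors, and Tnfsf13b with Tnfrsf13b and Tnfrsf17. Partners recur in several pairs, so pairs are not independent, and no share over other genes was set beside these counts. Partners without a given start, such as Tnfsf9, Tnfsf12, Tnfrsf10b and Tnfrsf11b, were counted by either end of the record. The list of pairs is partial and leaves out, for example, Tnfsf10 with Tnfrsf22 and Tnfrsf23, and Lta with Tnfrsf1a and Tnfrsf1b. Whether partners are alike more often than other genes was not tested.

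Neighbouring members differed in some loci and not in others. Tnfsf9, Cd70 and Tnfsf14 lie within 88.9 kb on chromosome 17, and Cd70 in states 9 to 11 stood between 2 ligands with an end or start in states 3 to 6, with the nearest such bin 39.6 kb away. Cd27, Ltbr and Tnfrsf1a lie within 130 kb on chromosome 6, and all 3 started in states 3 to 6. Tnfrsf1b in state 6 and Tnfrsf8 in state 11 lie side by side on chromosome 4.

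**Figure D3:**
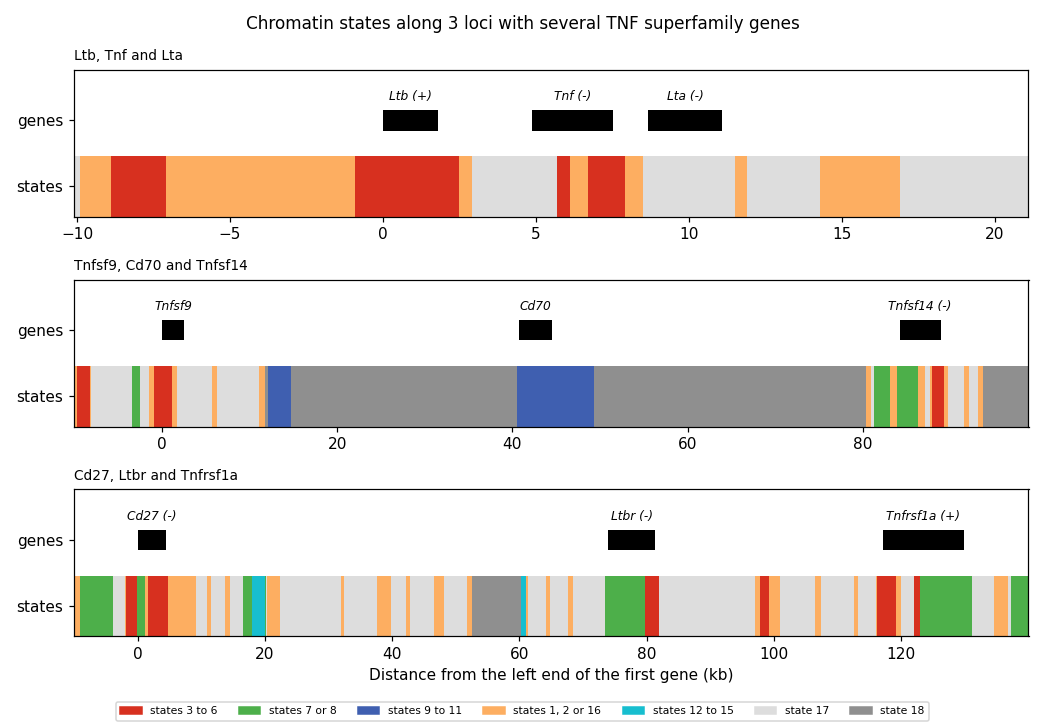
States along 3 loci with several members, by distance in kb from the left end of the first gene; black bars are gene records, with the strand where it was given. Cd70 sits in a block of states 9 to 11 within state 18, while Cd27, Ltbr and Tnfrsf1a each begin in states 3 to 6.

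Regions of the family, the gene record with 10 kb on each side, held more of states 3 to 6 and of states 1, 2 or 16 than the regions of all genes. Pooled, the member regions spanned 1532 kb, with 4.86% of bases in states 3 to 6 against 2.25% in the regions of all protein-coding genes. States 1, 2 or 16 covered 12.1% against 5.64%, states 7 or 8 covered 12.2% against 11.7%, and states 9 to 11 covered 8.17% against 12.0%. State 17 exceeded state 18 in member regions: state 17 covered 37.1% of member regions against 25.1% of all regions, and state 18 covered 25.2% against 39.5%. Chemokine gene regions were like them in 2 of these shares, with 12.2% in states 1, 2 or 16 and with state 17 (36.3%) above state 18 (33.2%), while states 3 to 6 covered 1.96% of them. The median region was 33 kb for members and 37.4 kb for all genes. The part of region length in these shares was not tested. Taken gene by gene, the median share in states 3 to 6 was 4.30% for members and 2.78% for all genes, and in states 1, 2 or 16 it was 12.6% for members and 4.20% for all genes. Another protein-coding record overlapped 21 of the 41 member regions, so those bins are shared with neighbours.

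Bins of states 1, 2 or 16 were found in the regions of 38 members (79.1% of all genes had one in theirs). State 16 was present in 38 members (76.4% of all genes), state 2 in 22 (38.8%) and state 1 in 18 (27.9%). Cd70, Tnfrsf23 and Tnfrsf25 had none of these states. The share was highest in Ltb at 41.8%, followed by Tnf at 39.1% and Tnfrsf1b at 33.2%. A bin of states 3 to 6 was present in 30 regions (63.1% of all genes), and a bin of states 9 to 11 in 13 (51.3% of all genes). In Ltb the share of states 3 to 6 was 30.9%, the highest in the family, and in Tnfsf13 it was 26.7%, whereas 11 members had no such bin.

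**Figure D4:**
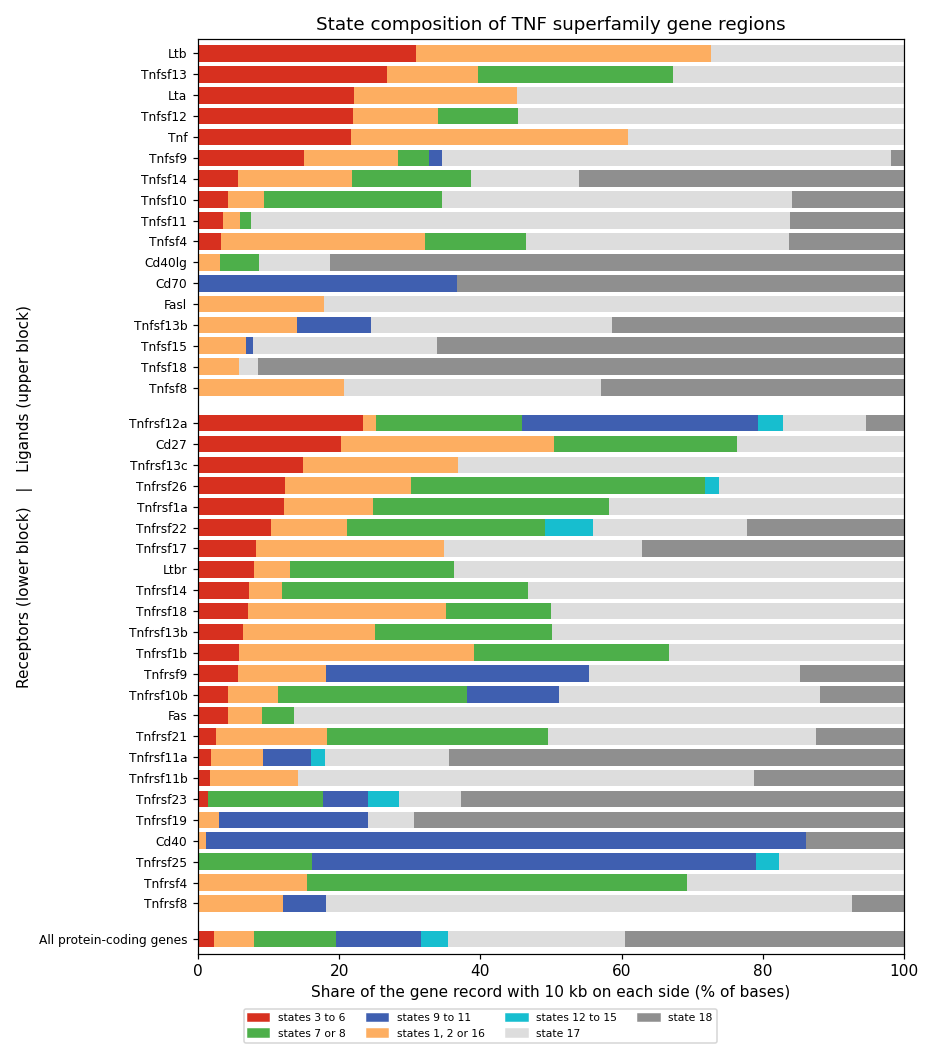
Share of each member's region (% of bases) in each class of states, ligands in the upper block and receptors in the lower, sorted by states 3 to 6, with all protein-coding gene regions pooled in the last bar. Ltb leads with 30.9% in states 3 to 6, and Cd40 stands apart with 85.1% in states 9 to 11.

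Members that started in states 3 to 6 did so on somewhat shorter runs than other genes and with fewer CG dinucleotides in their promoters. The run had a median of 2 kb in the 23 members, with quartiles of 1.6 and 2.4 kb, against 2.4 kb over all genes, with quartiles of 1.8 and 2.8 kb. Runs of states 3 and 5 only made up 7 of the 23 (30.4%, against 17.7% of all genes). Runs of 4 and 6 only made up 5 (21.7%, against 16.7%), and mixed runs 11 (47.8%, against 65.6%). In the signalling list these shares were 31.6%, 15.8% and 52.6%, so they are not particular to the family. No intervals were computed for them, and the differences were not tested.

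The promoter table gave 35 windows of 300 bases for the 31 members. At starts in states 3 to 6 the members had a median of 11 CG, against 22 over all protein-coding genes with such a start. A window held 15 or more CG in 4 of these 17 member starts (23.5%), against 75.1% of all such starts. None of the 6 ligand starts in states 3 to 6 reached 15 CG, and the ligand windows together ranged from 3 to 11. At starts in states 9 to 11 the median was 13 in members and 12 in all genes. Those 7 member windows come from 4 genes. The median was 6 in the 2 ligand windows, which overlap, and 14 in the 5 receptor windows. At starts in states 17 or 18 the median was 5.5 in members and 3 in all genes. The members were chosen by name, so this is a description of 35 windows with no test.

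Promoters at the ends of this range are printed to show how far windows with a start in states 3 to 6 differed, with a state 9 start beside them (same source and marking as above).
Tnfrsf11a, chr1:105780473-105780772, + strand: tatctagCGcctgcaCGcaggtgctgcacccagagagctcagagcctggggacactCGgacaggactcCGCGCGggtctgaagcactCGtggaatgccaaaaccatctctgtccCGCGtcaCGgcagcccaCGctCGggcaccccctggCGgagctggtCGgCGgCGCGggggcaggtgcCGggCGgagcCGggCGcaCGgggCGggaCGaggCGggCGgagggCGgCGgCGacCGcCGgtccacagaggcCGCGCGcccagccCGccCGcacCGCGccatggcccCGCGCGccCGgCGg
Tnfrsf14, chr4:154928028-154928327, - strand: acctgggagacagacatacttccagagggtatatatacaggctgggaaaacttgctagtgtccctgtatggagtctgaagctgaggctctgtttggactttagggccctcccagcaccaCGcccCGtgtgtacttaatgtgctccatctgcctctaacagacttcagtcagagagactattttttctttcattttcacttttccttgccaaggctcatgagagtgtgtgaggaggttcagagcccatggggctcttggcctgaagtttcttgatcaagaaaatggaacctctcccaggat
Tnfrsf25, chr4:152115684-152115983, + strand: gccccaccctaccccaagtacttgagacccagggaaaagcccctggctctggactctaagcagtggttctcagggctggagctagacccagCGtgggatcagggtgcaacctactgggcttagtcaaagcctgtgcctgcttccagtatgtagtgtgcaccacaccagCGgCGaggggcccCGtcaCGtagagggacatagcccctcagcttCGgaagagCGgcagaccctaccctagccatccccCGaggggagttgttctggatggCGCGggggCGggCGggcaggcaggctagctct
Tnfrsf11a held 43 CG, the most in the family, and started in state 6. Tnfrsf14 held 2, the fewest, and started in state 3. Tnfrsf25, with 12 CG at the start shown, lay in state 9. The other 2 were picked as the ends of the range, so a count between theirs was fixed by that choice.

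**Figure D5:**
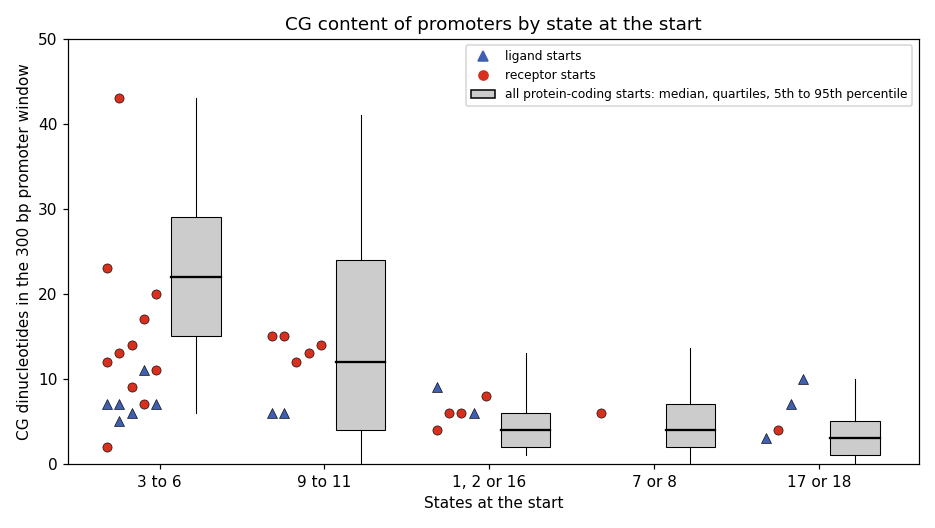
CG dinucleotides per 300 bp promoter window by the states at the start, for ligand starts (triangles) and receptor starts (circles), left of a box for all protein-coding starts (median, quartiles, whiskers at the 5th and 95th percentile). In states 3 to 6 the member median is 11, against 22 for all genes, and Tnfrsf11a stands at 43.

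Of the 6 motifs searched on both strands, GGGCGG was in 16 of the 35 member windows (45.7%, against 46.2% of all promoters), with 5 matches each in Tnfrsf11a and Tnfrsf12a. Of those, 3 were among the 13 ligand windows and 13 among the 22 receptor windows. TATAAA was in 6 member windows (17.1%, against 12.6% of all), 4 of them in ligands, among them Tnf and Tnfsf18. TGANTCA, a form of the AP-1 motif that reads alike on both strands, was in 7 (20.0%, against 6.99%), but 2 of these windows are the overlapping ones of Tnfsf13b and hold the same site. The loose NF-kappaB form was in 4 (11.4%, against 4.98%). These were Ltb, Tnfrsf13b, Tnfrsf25 and the second start of Tnfrsf9, where 2 matches overlap, 43 and 42 bases before the start. CCGGAAG, an ETS form, was in 3 (8.57%, against 11.6%): Tnfrsf12a, Tnfrsf1a and Tnfrsf1b. AGATAA, which erythroid and stem cell GATA factors bind, was in 1, Tnfsf13b (2.86%, against 9.65%). Matches may overlap, as at Tnfrsf12a, where a CCGGAAG and a GGGCGG match share a base. Counts this small carry wide counting error.

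The shared signalling machinery counted in states 3 to 6 in every gene of the list, by any start or either end. All 38 genes of a list of adaptors, kinases, caspase regulators and NF-kappaB factors had a start in states 3 to 6, against 50.4% of all genes and 56.1% of the superfamily. No test was made between the lists. The list and the state classes were chosen with earlier results of these data known, so this count is not independent support. A start was given for 32 of the 38, and the others were read at both ends. By the same rule 4 of the 38 also counted in states 17 or 18 and 4 in states 7 or 8. States 1, 2 or 16 held 1 of them. The list included Birc2 (state 5), Birc3 and Casp8 (both state 3), of the complexes that decide between survival and death. With either end of the record in place of the start the count was 36 of 38. The median run of the list was 2.4 kb, against 2 kb in superfamily members, and the longest was 5.6 kb at Map3k14, the kinase of the noncanonical NF-kappaB pathway. Cflar, an inhibitor of Casp8 at death receptors, had a run of 4.6 kb, and Nfkb1 one of 5 kb. States 7 or 8 covered 30.7% of the signalling gene regions, against 12.2% of the superfamily regions.

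Like families of secreted signals and their receptors had a lower share of starts in states 3 to 6. The count was 23 of 41 in the TNF superfamily (56.1%), 30 of 83 in interleukin genes and receptors (36.1%) and 10 of 58 in chemokine genes and receptors (17.2%). The Wilson intervals of the superfamily (41.0 to 70.1%) and the interleukin group (26.6 to 46.9%) overlapped. That of the chemokine group ran from 9.64 to 28.9%. States 17 or 18 held the start of 19.5% of the TNF superfamily, 56.6% of the interleukin group and 62.1% of the chemokine group. In states 1, 2 or 16 the superfamily (19.5%) stood close to the chemokine group (20.7%) and above the interleukin group (12.0%). Chemokine genes lie in clusters, and these differences were not tested.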

How the data were processed

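Per the labels' protocols, chromatin of sorted HSCs was cut with micrococcal nuclease and precipitated with an antibody against H3.3. Tools named in the submitters' processing notes are Bowtie2, deepTools, MACS2 and HOMER, with the build mm10. The authors deposited a segmentation whose unit is a state number per segment, not a count or a signal, in bins of 200 bp, as a dense and an expanded track. These matched in 100% of bins. Its input tracks, emissions and program version are not stated. The depth per sample is unknown, so intervals cover counting error only.

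Of 21900 protein-coding records, 13 outside the map and 108 within the first 3 Mb of a chromosome were left out. Starts came from the RefSeq promoter table, which matched 31 of 41 members and 17492 of 21779 genes, and other genes were read at both ends. Every member could be named. From the signalling list the rule named the first 3 symbols in a class. Map3k14, Cflar and Nfkb1 were picked after seeing their values. Members, lists and state classes were chosen with earlier results of these data known. One listed marker gene is not reported here. The look-ups were tested on simulated data. Python 3.11.15, numpy 2.4.6, pandas 2.3.3, scipy 1.17.1 and matplotlib 3.10.9 were used. Alternatives were the bin, the end, the flank, single-bin segments, the other track, neighbours counted once and the weighting.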

Additional observations from a re-analysis of the deposited data

How the results depend on the processing

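Across 10 results and 55 alternative values, 44 were called the same and 11 moved. Each of the 10 results was also read on the expanded track. That track matched the dense one in 100% of bins, so those same calls were fixed in advance and show no robustness. A count was called moved when it differed by more than 1.5 times, whatever number of genes it was out of. A share of bases was called moved when it left its counting interval. Starts in states 1, 2 or 16 were not among these results. For them only the restriction to genes with a given start was read (6 of 31, 19.4%, against 3.57% of all). The members in states 17 or 18 numbered 8 of 41, but 27 with any bin within 1 kb of the start and 20 with either end of the record. The 20 stand against 57.8% of all genes. For the 27 no share over all genes is given, so whether that count is low or high is unknown. Among genes with a given start, a restriction added after the data were seen, members in states 17 or 18 numbered 4 of 31 (12.9%, against 27.5% of all). Ligands in states 3 to 6 numbered 8 of 17, and 5 of 10 with genes within 100 kb counted once. In both of these restrictions the number of genes fell too. Their shares lay within the Wilson intervals of the main ones (10.2 to 34.0% and 26.2 to 69.0%). The pooled share in states 3 to 6 was 6.24% with 2 kb flanks and 3.69% with 50 kb flanks. The mean of the members' own shares was 7.64%, against 5.02% for all genes. The pooled share in states 9 to 11 was 9.31% with 50 kb flanks. For states 17 or 18 it was 59.5% with 2 kb flanks and 64.2% with 50 kb flanks. The mean of own shares there was 57.2%, against 56.5% for all genes, whereas the pooled share was 62.3% against 64.6%. For the other flanks no share over all genes is given. Flanks change which bases are counted, by construction. The counting interval of a share of bases treats the 7659 bins as independent. Bins of 1 segment share a state, so that interval is too narrow. No paired analysis was possible because the 1 map has neither replicate nor knockout columns. Replicates could not be left out for the same reason. The map carries no depth, so how firmly a bin holds its state is unknown.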

Other observations

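Superfamily genes whose symbols the naming rule does not match were read in the same way. Eda, Edar, Eda2r and Relt each started in state 6, so 4 of 5 lay in states 3 to 6 (Wilson interval 37.6 to 96.4%, which includes the 50.4% of all genes). Eda and Edar encode ectodysplasin and its receptor, which are known for skin appendage development. Their runs of states 3 to 6 spanned 2.4 kb at Eda, 1.4 kb at Edar, 1 kb at Eda2r and 2 kb at Relt. Ngfr, the nerve growth factor receptor gene, started in state 11.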
